A study of Mus musculus with 6 samples.

Results

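The 48 genes described here encode the enzymes that copy chromosomal DNA and those that supply its nucleotides. They were taken by name: the licensing factors and Mcm helicase subunits, the proteins that activate the helicase, the DNA polymerases, the sliding clamp and its loader, the single-strand binding proteins, enzymes of deoxynucleotide supply, fork protection factors, chromatin assembly factors and a pair of E2F transcription factors. All 48 were listed among the 22064 genes of the deposited tables, all had values in every sample, and all passed the filter on low counts, so none dropped out. Their lowest value in any library was 16.1 CPM, that is, counts scaled to library size (CPM) after correction between libraries by the trimmed mean of M values (TMM).

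CD8+ T cells, the cytotoxic lymphocytes that recognise antigen on MHC class I, were isolated from the spleens of mice and cultured for 48 h with or without neutrophil extracellular traps (NETs). NETs are webs of chromatin and granule proteins that activated neutrophils expel. The NET group had 3 samples, which received 10 μg/mL of NETs, and the control group had 3 samples without NETs. According to the methods of the study, the mice were BALB/c (aged 6 to 8 weeks in the study in general), and the NETs came from neutrophils stimulated with 200 nM of the phorbol ester PMA. The culture conditions that would drive these cells into division were not given for these samples in the sources used here.

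Replication origins are licensed in G1 phase, when the origin recognition complex, Cdc6 and Cdt1 load the ring of Mcm2 to Mcm7 onto DNA. At the start of S phase the ring is activated by Cdc45 and GINS, and the polymerases then copy the separated strands behind it. A resting T cell keeps few of these proteins, and an activated one makes them in quantity before it divides. Many of the genes are targets of E2F transcription factors, which are held in check by pocket proteins of the retinoblastoma family until a cell commits to S phase.

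E2F factors are known to bind a run of T followed by G and C near the start of such genes, and so the promoters were searched for these letters. RefSeq promoter windows of 300 bases on GRCm38.p6, with 250 bases before and 50 after the start, were at hand for 40 of the 48 genes. The letters TTTCCCGC, TTTCGCGC, TTTGCCGC or TTTGGCGC on either strand, called E2F-type here, were found in the windows of 16 of these 40 genes, a share of 40%. Among the 10095 genes that were tested for expression and had a window the share was 4.74%, and among all 27025 genes with a window it was 2.6%. Before the start alone, the share was 22.5% in the replication genes and 3.94% in the genes tested. The box CCAAT on either strand was present in 62.5% of the 40 genes and in 43.4% of the genes tested (41.1% of all genes with a window). The stretches below show how the letters are arranged ahead of a start of 3 genes that fell with NETs (Mcm6, Mcm5 and Pola1). E2f2, which fell furthest, and Mcm3, a helicase subunit with nearly equal levels in both groups, are also shown. Each is the 160 bases before the start on which the window was set, and overlaps no annotated exon of GENCODE vM21. The RefSeq gene coordinates of Pola1 run to 93632387, so its stretch lies inside them. Those of Mcm5 begin at 75109468, so the end of its stretch lies inside them too. E2F-type and CCAAT letters are in capitals.
Mcm6 (chr1:128359706-128359865, minus strand): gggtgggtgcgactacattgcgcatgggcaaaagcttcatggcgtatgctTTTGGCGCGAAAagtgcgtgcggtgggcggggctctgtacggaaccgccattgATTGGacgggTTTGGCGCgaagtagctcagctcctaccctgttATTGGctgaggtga
Mcm5 (chr8:75109349-75109508, plus strand): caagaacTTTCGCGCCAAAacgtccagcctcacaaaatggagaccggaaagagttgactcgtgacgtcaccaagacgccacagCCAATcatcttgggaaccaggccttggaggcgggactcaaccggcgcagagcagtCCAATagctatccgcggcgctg
Pola1 (chrX:93632156-93632315, minus strand): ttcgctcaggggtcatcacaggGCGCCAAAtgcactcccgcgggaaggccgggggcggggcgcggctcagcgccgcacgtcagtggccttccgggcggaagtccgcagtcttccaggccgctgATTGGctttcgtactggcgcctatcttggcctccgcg
E2f2 (chr4:136172114-136172273, plus strand): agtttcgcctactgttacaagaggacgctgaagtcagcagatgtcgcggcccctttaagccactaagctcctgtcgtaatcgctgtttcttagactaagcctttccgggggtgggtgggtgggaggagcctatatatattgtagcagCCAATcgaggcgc
Mcm3 (chr1:20820313-20820472, minus strand): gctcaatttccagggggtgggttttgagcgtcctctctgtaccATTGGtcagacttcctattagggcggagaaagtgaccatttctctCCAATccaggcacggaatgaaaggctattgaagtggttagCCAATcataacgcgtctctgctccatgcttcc

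Mcm6 held E2F-type letters at positions -110, -106 and -47 from the start, the first pair overlapping each other. In Mcm5 a pair of overlapping matches began at -153 and -149, and in Pola1 a single match began at -138. No printed E2F-type match overlapped a CCAAT match. E2f2 had no match ahead of this start and 1 just after it, at position 40. Mcm3 also had its matches after the start, at positions 20 and 39. The matches describe letters only, and neither a match nor its absence says whether a factor was bound. E2F-type letters were in the windows of 10 of the 17 genes that fell and had a window, in 5 of the 21 that passed the test in neither direction, and in 1 of the 2 that rose. Over all genes tested with a window, the shares in the same order were 6.81%, 4.58% and 3.09%. Before the start alone, the counts were 5 of 17, 3 of 21 and 1 of 2, beside 5.34%, 3.87% and 2.73% of all genes tested. A second kind of element, the cell cycle homology region with the letters TTTGAA on either strand, was found in 15.0% of the replication genes and in 14.6% of the genes tested (20.2% of all genes with a window). In the promoters of a list of 30 genes of mitosis the shares over the whole window were the other way round: of the 25 with a window, TTTGAA was in 68.0% and E2F-type letters were in 4.0%. Before the start alone, TTTGAA was in 28.0% of these mitosis genes, 15.0% of the replication genes and 13.1% of the genes tested.

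**Figure D1:**
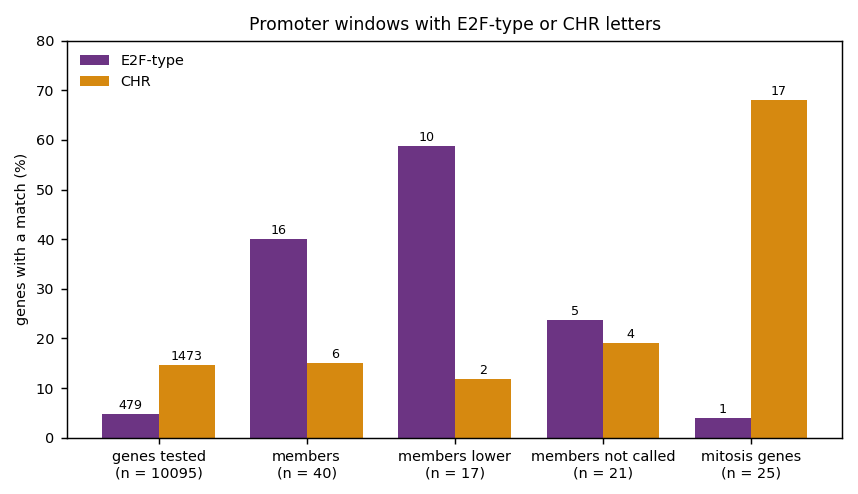
Share of genes (y axis, percent) whose 300-base promoter window held E2F-type (purple) or cell cycle homology region (CHR, orange) letters on either strand, with the number of genes above each bar. E2F-type letters were in 40% of the replication genes and 4.0% of the mitosis genes, and CHR letters in 15.0% and 68.0%.

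Library totals were similar, from 18696355 to 19425700 estimated counts. The first principal component of all genes tested separated the groups and held 81.1% of the variance, while the second, with 8.29%, set both samples numbered 1 apart from the rest. Defining markers of CD8+ T cells were abundant in all samples, and the summed level of 9 of them, among them Cd8a and Lck, was 2832 to 3162 CPM with NETs and 4150 to 4450 CPM in controls (8 of 9 fell). Markers of B cells, led by Cd22 and Cd79b, summed to 149.8 to 244.0 CPM with NETs and 35.1 to 45.6 CPM in controls (11 of 12 rose). The sums of the other lists with NETs and in controls were 677 to 839 and 516 to 534 CPM for plasma cells (Irf4 and Xbp1 highest, 6 of 7 rose), 34.3 to 53.6 and 20.0 to 23.5 CPM for neutrophils (Mpo and Cxcr2, 5 of 6 tested rose), and 127 to 142 and 76.2 to 82.5 CPM for macrophages and monocytes (Ccr2 and Lyz2, 5 of 9 tested rose and 1 fell). They were 236 to 269 and 288 to 307 CPM for dendritic cells (Ccr7 and H2-Aa, 4 of 7 tested rose and 2 fell), 85.1 to 112 and 95.4 to 118 CPM for NK cells (Eomes and Tyrobp, 1 of 2 tested rose), 65.9 to 79.8 and 81.4 to 92.3 CPM for CD4+ T cells (Cd4 and Zbtb7b, 3 of 4 fell and 1 rose), and under 2 CPM for erythroid cells (Alas2 and Hba-a1). Irf4 and Xbp1 held most of the plasma cell sum (411 and 238 CPM with NETs, 307 and 177 CPM in controls, as means). Jchain rose from a mean of 5.72 to 28.5 CPM and Mzb1 from 2.70 to 15.3 CPM. Among neutrophil markers the means of S100a8, S100a9 and Lcn2 rose from 0.123, 0.106 and 0.232 CPM to 4.29, 2.88 and 9.68 CPM. Mpo and Csf3r rose less, from 8.48 and 1.94 to 12.5 and 4.79 CPM, and Cxcr2 did not pass. The neutrophil marker Camp was at 0 in all control samples and at 0.309, 0.207 and 0.210 CPM in NET samples 1 to 3. It was too low to be tested, and Ly6g and Retnlg had no values. In the dendritic cell list Ccr7 fell from a mean of 239 to 87.3 CPM, and the sum followed it, while Itgax fell from 9.92 to 5.14 CPM. The 4 that rose were H2-Aa (23.1 to 90.7 CPM), H2-Ab1 (19.0 to 57.4 CPM), Xcr1 (1.43 to 10.0 CPM) and Zbtb46 (3.22 to 5.65 CPM). These shifts move with the group, and their part in the results below was not tested.

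Transcript levels of a large share of the replication machinery were lower in the cells cultured with NETs. Of the 48 genes, 19 fell, 2 rose (Orc1 and Tk1) and 27 passed the test in neither direction (edgeR quasi-likelihood test, Benjamini-Hochberg adjusted p below 0.05 over 12546 genes). These counts stand beside a wide response of the cells: 44.7% of all genes tested passed, with 22.3% higher and 22.3% lower with NETs, against 4.17% higher and 39.6% lower among the replication genes. The changes were small. Past a change of 0.58 in log2 units as well, 5 of 48 genes fell (E2f2, Timeless, Pole, Clspn and Pold1) and none rose, the highest log2 fold change being 0.48, beside 11.9% of all genes lower and 13.4% higher, so that the share of large falls was near the background. The median log2 fold change was -0.23 in the replication genes and -0.01 in all genes tested, and the median size of the change regardless of sign was 0.271 in the replication genes and 0.319 in all genes. In 24 of the 48 genes every NET sample was below every control sample and in 5 every NET sample was above, beside 27.2% and 27.4% of all genes. Since these are whole cultures, fewer dividing cells and less of each transcript per cell cannot be told apart.

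The number of genes that fell depended on single samples: 12 fell without NET sample 3, 12 without control sample 2 and 10 without control sample 3. Fewer genes were then also lower over all genes tested: 2605 of 12699, 2206 of 12776 and 2120 of 12771. With all samples it was 2804 of 12546. The 10 genes that fell under each of the 19 alternative analyses were Mcm7, Gins3, Pold1, Pole, Lig1, Rpa2, Timeless, Chaf1b, Clspn and E2f2, and Tk1 rose under each of them. No member that passed the test changed direction under any of them. With both samples numbered 1 left out, 20 genes fell and 2 rose, beside 2944 lower and 2981 higher of all 12606 genes tested.

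**Figure D2:**
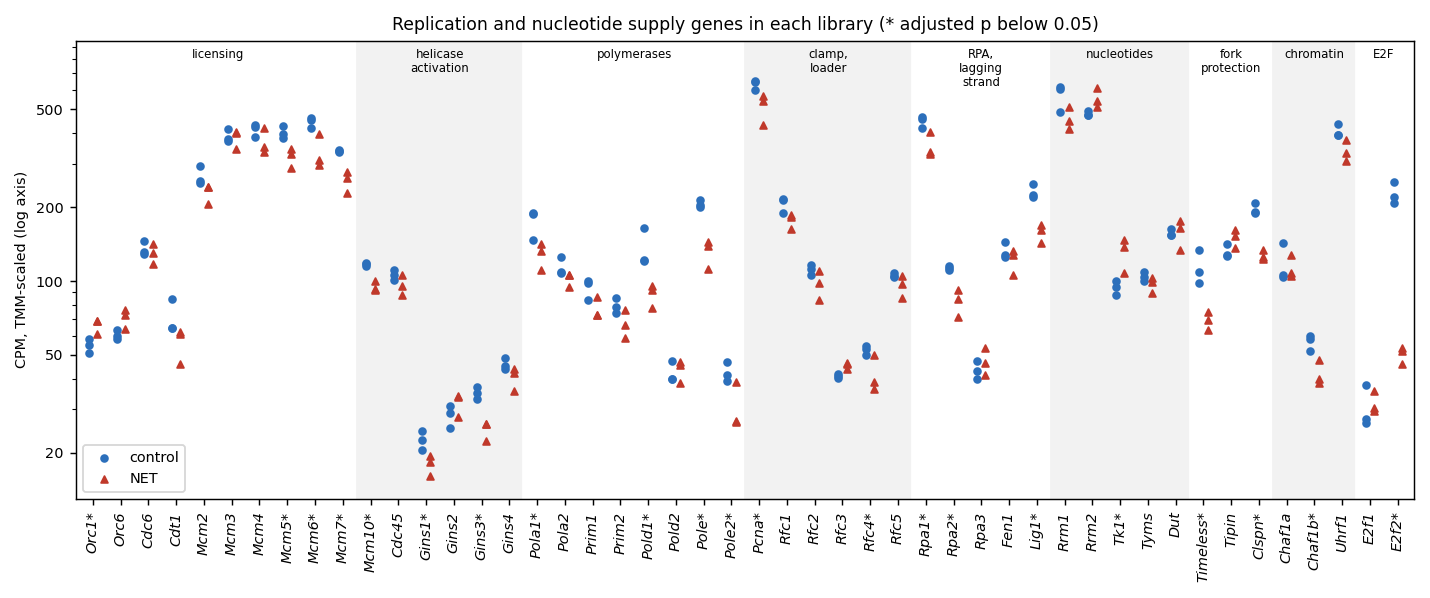
TMM-scaled CPM (y axis, log scale) of the 48 genes in each control (blue circles) and NET (red triangles) sample, grouped by role, with an asterisk on the 21 genes that passed the test. E2f2 shows the widest gap, from 252, 208 and 220.03 CPM in controls to 52.1, 53.5 and 46.0 CPM with NETs, and in 24 of the 48 genes all NET samples lie below all controls.

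Of the 10 genes of licensing and the helicase core, Mcm5, Mcm6 and Mcm7 fell (30%) and Orc1 rose (10%), beside 22.3% of all genes in each direction. Orc1, the large subunit of the origin recognition complex that is made anew in G1 phase, stood at 61.1, 68.6 and 68.6 CPM in NET samples 1 to 3 and at 51.0, 58.2 and 55.1 CPM in control samples 1 to 3. Every NET value was above every control value, and the change was 0.27 ± 0.09 in log2 units (here and below ± 1 SE, edgeR adjusted p = 0.0362), although the call was lost when any 1 sample other than NET sample 1 was left out (adjusted p up to 0.0967). Orc6, the smallest subunit of the same complex, had a log2 fold change of 0.23 ± 0.09 without passing (edgeR adjusted p = 0.0668). The loading factors also missed the threshold, with log2 fold changes of -0.34 ± 0.14 for Cdt1 (edgeR adjusted p = 0.0798) and -0.06 ± 0.10 for Cdc6 (edgeR adjusted p = 0.653).

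Mcm6, a subunit of the helicase ring whose promoter is printed above, measured 310.3, 395 and 297 CPM with NETs and 420.1, 462 and 454 CPM without. The groups did not overlap, and the log2 fold change was -0.41 ± 0.12 (edgeR adjusted p = 0.0167), but NET sample 2 lay close to the controls, and without NET sample 1 or 3 or control sample 2 or 3 the call was lost (adjusted p up to 0.059). Mcm5 gave 328, 344 and 289 CPM with NETs against 427, 383 and 397 CPM, a log2 fold change of -0.33 ± 0.10 (edgeR adjusted p = 0.0214) that missed the threshold without NET sample 3 or control sample 3 (adjusted p up to 0.0679). Mcm7 was the 1 subunit of the ring that passed under each of the 19 alternatives. Its controls lay within a few CPM of each other at 336, 339 and 341 CPM, its NET samples at 262, 278 and 228 CPM, and its log2 fold change of -0.40 ± 0.10 left the groups well apart (edgeR adjusted p = 0.00725). Mcm3 had 403, 401 and 344 CPM with NETs and 415, 369.7 and 377 CPM in controls, so its groups overlapped and its log2 fold change was -0.02 ± 0.10 (edgeR adjusted p = 0.91). Mcm2 and Mcm4 lay between, at -0.22 and -0.16, and did not pass (edgeR adjusted p = 0.119 and 0.254). The proteins work as a ring with 1 copy of each subunit, and the log2 fold changes of the 6 transcripts ran from -0.41 to -0.02, that of Mcm3 turning positive under some alternatives, among them upper-quartile scaling and FPKM.

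Of the 6 genes of helicase activation, 3 fell and none rose, few genes to set beside the 22.3% of all genes in each direction. Gins3, a subunit of the GINS complex that joins the Mcm ring to Cdc45, was at 26.3, 26.1 and 22.3 CPM with NETs and 33.0, 34.9 and 37.0 CPM in controls. The groups stood well apart, and its log2 fold change of -0.49 ± 0.11 (edgeR adjusted p = 0.00373) was the largest of the group. Mcm10, which helps to separate the paired helicases at the start of synthesis, was at 92.8, 100.04 and 91.8 CPM against 115, 119 and 117 CPM. Its control values were tightly bunched and its log2 fold change was -0.30 ± 0.08 (edgeR adjusted p = 0.0137), a call lost without control sample 2 or 3 (adjusted p up to 0.0644). Gins1 was expressed at 19.4, 18.3 and 16.1 CPM with NETs and 24.6, 20.5 and 22.6 CPM without, near the low end of the 48 genes. Its log2 fold change of -0.33 ± 0.12 passed only narrowly (edgeR adjusted p = 0.0431) and was lost under 11 of the 19 alternatives, among them DESeq2 and leaving out NET sample 2 or 3 or control sample 1 or 3 (adjusted p up to 0.124). Cdc45, the member of this group with the highest FPKM, was at 95.3, 106 and 88.1 CPM with NETs and 101, 106 and 110.5 CPM in controls. These values overlapped, with a log2 fold change of -0.13 ± 0.10 (edgeR adjusted p = 0.282). The other GINS subunits went different ways without passing, Gins2 at 0.17 ± 0.12 (edgeR adjusted p = 0.27) and Gins4 at -0.17 ± 0.10 (edgeR adjusted p = 0.208).

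Of the 8 genes of the polymerases and primase, 4 fell (50%) and none rose, beside 22.3% of all genes in each direction. Their median log2 fold change, -0.36, was the lowest among the roles with 5 or more genes. The catalytic subunits of all 3 replicative polymerases fell. Pole encodes the catalytic subunit of polymerase epsilon, which copies the leading strand, and measured 111, 139 and 144 CPM with NETs against 204, 214 and 201 CPM. NET sample 1 was the lowest of its group here, and the log2 fold change was -0.65 ± 0.11 (edgeR adjusted p = 0.000919). Pold1, the catalytic subunit of the lagging-strand polymerase delta, gave 92.1, 95.7 and 77.5 CPM with NETs and 164, 121 and 122 CPM without. Control sample 1 stood above its group, all NET values were below all control values, and the log2 fold change was -0.62 ± 0.14 (edgeR adjusted p = 0.0042). Pola1, the catalytic subunit of polymerase alpha, which extends the RNA primers, was at 111, 141 and 132 CPM with NETs. Its controls were at 146, 187 and 189 CPM, and control sample 1 lay close to NET sample 2. The log2 fold change was -0.44 ± 0.13 (edgeR adjusted p = 0.0165), and the call was lost without NET sample 1 or control sample 2 or 3 (adjusted p up to 0.072).

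Pole2, an accessory subunit of polymerase epsilon, ranged over 26.6, 38.9 and 26.9 CPM with NETs and 39.2, 46.8 and 41.5 CPM in controls. The lowest control and NET sample 2 all but met, and the call (-0.46 ± 0.15 on the log2 scale, edgeR adjusted p = 0.0284) was lost without NET sample 1 or 3, without control sample 2 or 3 and without both samples numbered 1 (adjusted p up to 0.107). Prim1, the catalytic subunit of primase, was the gene of this group with the highest FPKM and read 72.9, 86.3 and 72.9 CPM with NETs against 83.4, 99.9 and 98.1 CPM. Its highest NET value was above its lowest control value, and the log2 fold change of -0.28 ± 0.11 did not pass (edgeR adjusted p = 0.0568). The accessory subunits Pola2, Prim2 and Pold2 had log2 fold changes of -0.15, -0.24 and 0.04 and did not pass (edgeR adjusted p = 0.216, 0.102 and 0.779). The catalytic and the second subunit of polymerase delta thus had different changes, which the levels per length below show side by side.

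Among the 6 genes of the clamp and its loader, Pcna and Rfc4 fell, both by narrow margins, beside 22.3% of all genes lower. Pcna, the ring that tethers polymerases to DNA, was the most abundant of the 48 transcripts per length, and its counts came to 539.6, 564 and 431 CPM with NETs and 601, 646 and 654 CPM in controls. The groups did not overlap and the log2 fold change was -0.31 ± 0.11 (edgeR adjusted p = 0.0486), but the call was lost under 12 of the 19 alternatives, including the scaling by upper quartile and leaving out any 1 sample other than control sample 1 (adjusted p up to 0.157). Reads of Pcna may also be shared with its pseudogenes Pcna-ps1 and Pcna-ps2. Rfc4, a small subunit of the clamp loader, was at 38.9, 49.8 and 36.2 CPM with NETs against 50.04, 52.9 and 54.6 CPM. NET sample 2 lay just under the lowest control, and the log2 fold change of -0.34 ± 0.12 (edgeR adjusted p = 0.0464) lost its call under 9 alternatives, among them those without NET sample 1 or 3, control sample 2 or 3, or both samples numbered 1 (adjusted p up to 0.145). Rfc1, Rfc2 and Rfc5 had log2 fold changes of -0.22, -0.20 and -0.14 and Rfc3 of 0.14, all short of the threshold (edgeR adjusted p from 0.0925 to 0.252).

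Of the 5 genes of single-strand binding and the lagging strand, 3 fell, few genes to set beside the 22.3% of all genes lower. Lig1, the ligase that seals Okazaki fragments, was at 161, 169 and 143 CPM with NETs and 248, 224 and 219 CPM without. Its groups were far apart for their spread, with a log2 fold change of -0.55 ± 0.10 (edgeR adjusted p = 0.00135). Rpa2, the middle subunit of replication protein A, which coats single-stranded DNA, read 84.8, 91.8 and 71.5 CPM against 113, 111 and 115 CPM. NET sample 3 was the lowest and the log2 fold change was -0.45 ± 0.10 (edgeR adjusted p = 0.00521). Rpa1, the large subunit, had 336, 403 and 329 CPM with NETs and 419, 458 and 465 CPM in controls. NET sample 2 came near the lowest control, and the log2 fold change of -0.33 ± 0.11 (edgeR adjusted p = 0.0274) missed the threshold without NET sample 1 or 3 or control sample 2 or 3 (adjusted p up to 0.107). The small subunit Rpa3 did not follow, at 0.11 ± 0.11 (edgeR adjusted p = 0.449), and neither did the flap nuclease Fen1, at -0.12 ± 0.11 (edgeR adjusted p = 0.405).

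Among the 5 genes of nucleotide supply 1 rose and none fell, which is few genes to set beside the 22.3% of all genes in each direction, and the median of their log2 fold changes was 0.00. Tk1, the thymidine kinase that salvages thymidine for dTTP, measured 147, 138 and 108 CPM with NETs and 99.7, 87.9 and 94.1 CPM in controls. All NET values were above all control values, NET sample 3 being the nearest to them, and the log2 fold change of 0.48 ± 0.12 (edgeR adjusted p = 0.00815) passed under each of the 19 alternatives. Rrm2, the regulatory subunit of ribonucleotide reductase, which limits the making of deoxynucleotides in S phase, was at 543, 609.8 and 510.4 CPM against 476, 489.7 and 473 CPM. Its groups did not overlap either, but the log2 fold change of 0.21 ± 0.10 did not pass (edgeR adjusted p = 0.103). Rrm1, the large subunit of the same enzyme, had a log2 fold change of -0.31 ± 0.12 (edgeR adjusted p = 0.0571), and was the 1 gene of the group that was lower at an unadjusted p below 0.05 (0.0264). It passed as lower under 5 of the 19 alternatives (DESeq2, the replicate block, without NET sample 2, without control sample 1 and without both samples numbered 1). Tyms, which makes dTMP, and Dut, which removes dUTP, had log2 fold changes of -0.10 ± 0.09 and 0.00 ± 0.11 (edgeR adjusted p = 0.379 and 0.992), and Tyms has a named pseudogene, Tyms-ps, that may share its reads.

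Fork protection held a pair of the largest falls. Timeless, a scaffold of the fork protection complex, was at 74.9, 69.3 and 62.9 CPM with NETs and 134, 109 and 98.2 CPM without. Control sample 1 was the highest, and the log2 fold change was -0.72 ± 0.12 (edgeR adjusted p = 0.000997). Clspn (claspin), the adaptor that carries the stalled-fork signal from ATR to CHK1, gave 123, 133 and 125 CPM against 208, 192 and 188 CPM. All NET values were below all control values, and the log2 fold change was -0.62 ± 0.09 (edgeR adjusted p = 0.000269). Tipin, the binding partner of Timeless, had 152, 162 and 136 CPM with NETs and 127, 141 and 127 CPM in controls. These values overlapped, and its log2 fold change of 0.19 ± 0.10 had the opposite sign to that of its partner without passing (edgeR adjusted p = 0.144).

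Of the 3 genes of chromatin assembly and maintenance methylation, 1 fell and none rose, few genes to set beside the 22.3% of all genes in each direction. Chaf1b fell and its partner did not pass. Chaf1b, the middle subunit of the chromatin assembly factor that places histones on new DNA, was at 38.5, 47.8 and 39.9 CPM with NETs and 51.9, 59.9 and 58.2 CPM in controls. The groups were separate, with a log2 fold change of -0.43 ± 0.11 (edgeR adjusted p = 0.00916). Chaf1a, the large subunit, had a log2 fold change of -0.04 ± 0.13 (edgeR adjusted p = 0.814). Uhrf1, which guides DNA methylation to the new strand, was the most abundant of the 3 per length and read 331, 375 and 307 CPM with NETs and 434, 394 and 393 CPM without. Its groups did not overlap, but the log2 fold change of -0.27 ± 0.10 did not pass (edgeR adjusted p = 0.0541).

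E2f2 had by far the largest change of the 48. This member of the E2F family, which in mice is known to restrain T cell proliferation as well as to activate S phase genes, was at 52.1, 53.5 and 46.0 CPM with NETs and 252, 208 and 220.03 CPM in controls. The lowest control was over 3 times the highest NET sample, and the log2 fold change was -2.16 ± 0.11 (edgeR adjusted p = 2.89e-07). E2f1, its relative and an activator of the same kind of gene, gave 35.6, 30.4 and 29.5 CPM against 37.8, 26.5 and 27.4 CPM. Samples numbered 1 were the highest of both groups, the groups overlapped, and the log2 fold change was 0.06 ± 0.15 (edgeR adjusted p = 0.772). Without E2f2, the median of the other 47 genes was -0.22.

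**Figure D3:**
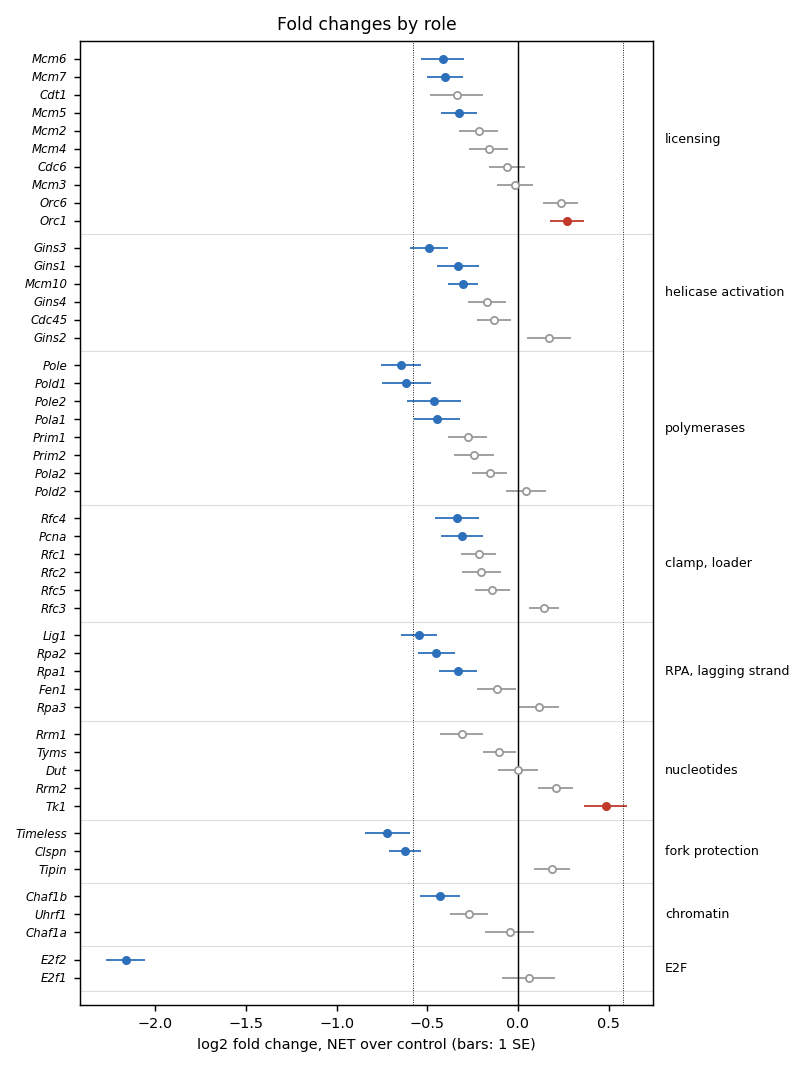
Log2 fold change of each gene (x axis, NET over control, bars 1 SE) by role, with filled points for genes that passed the test (blue lower, red higher) and dotted lines at the fold threshold of 0.58. E2f2 lies at -2.16, Timeless, Pole, Clspn and Pold1 lie past the lower line, and Tk1 at 0.48 is the highest.

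Levels of different genes were compared on FPKM, which is scaled for transcript length. The median of the 48 genes was 46.5 FPKM in controls and 41.1 FPKM with NETs, and the median of all genes tested in controls was 10.9 FPKM. Pcna led in both groups, at 517 ± 14.8 FPKM in controls and 423 ± 56.9 FPKM with NETs (SD, n = 3), followed by Rrm2 at 222 ± 4.97 and 260.3 ± 21.7 FPKM. Mcm6, Rpa1, Rrm1 and Mcm7 came next in controls, at 149 ± 5.44, 148 ± 5.92, 142 ± 15.1 and 141 ± 1.19 FPKM. Neighbours among these genes overlapped in their control values, whereas all Mcm6 control values were above all Mcm7 control values. With NETs the values of Mcm6 and Mcm7 overlapped. E2f1 was the lowest in controls, at 11.3 ± 2.50 FPKM, and Gins3 with NETs, at 10.6 ± 0.935 FPKM. E2f2 went from 52.4 ± 5.41 to 12.0 ± 0.904 FPKM, that is, from place 22 of 48 to place 46, beside E2f1.

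Transcripts of partner subunits stood in different proportions in the 2 groups. The ratios in this paragraph were chosen after the values had been seen and are given without a test. Tipin over Timeless was 8.06, 9.38 and 8.71 on FPKM with NETs and 3.68, 5.17 and 5.14 in controls. E2f2 over E2f1 was 0.921, 1.14 and 0.996 with NETs and 4.12, 4.94 and 5.1 in controls, so a factor with a clear lead over its relative in controls stood level with it in the NET group. Rrm2 over Rrm1, the subunits of ribonucleotide reductase, was 2.42, 2.2 and 2.11 with NETs and 1.8, 1.51 and 1.42 in controls. Pold2 over Pold1, of polymerase delta, was 1.14, 1.05 and 1.11 with NETs and 0.633, 0.722 and 0.721 in controls. Rpa3 over Rpa1, of the single-strand binding complex, was 0.698, 0.673 and 0.641 with NETs and 0.484, 0.476 and 0.518 in controls. In each of these 5 ratios the groups did not overlap. Chaf1a over Chaf1b, by contrast, was 1.9, 1.29 and 1.51 with NETs and 1.56, 1.01 and 1.01 in controls, and those ranges overlapped. Within the Mcm ring, the highest subunit was 1.91 times the lowest with NETs and 1.88 times in controls.

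**Figure D4:**
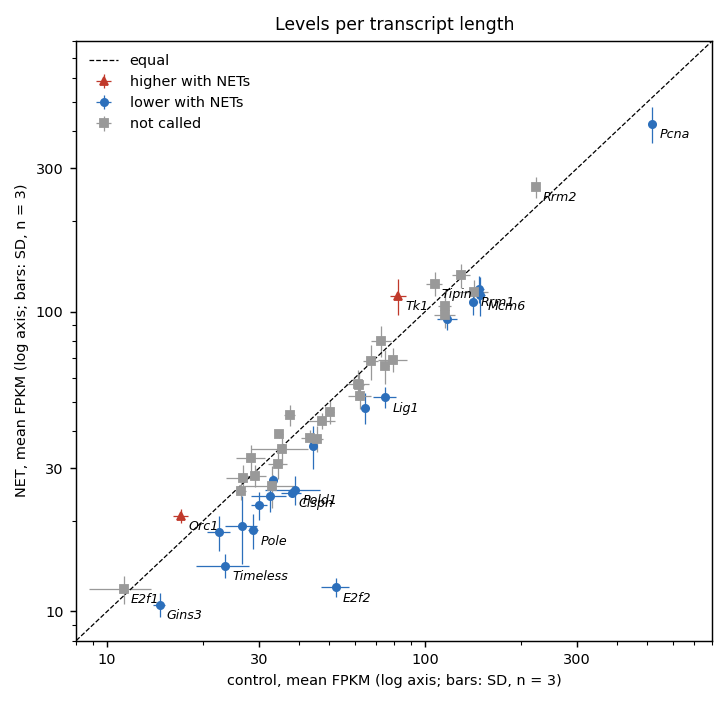
Mean FPKM with NETs (y axis) against control (x axis), both on log axes with SD bars (n = 3), for the 48 genes; the dashed line marks equal levels. Most genes lie close to the line and a little under it, E2f2 lies far under it at 52.4 FPKM in controls and 12.0 FPKM with NETs, and Tk1, Rrm2, Orc1 and Tipin lie above it.

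Of 36 further genes of the replication pathway, 13 fell (36.1%), 3 rose (8.33%) and 20 did not pass, beside 22.3% of all genes in each direction. Their median log2 fold change was -0.19. The falls with the smallest adjusted p were those of Top2a, the topoisomerase that untangles sister DNA (-0.70 ± 0.11, edgeR adjusted p = 0.000434), Dnmt1, the maintenance DNA methyltransferase (-0.50 ± 0.09, edgeR adjusted p = 0.00173), Ticrr, which brings Cdc45 to origins (-0.53 ± 0.10, edgeR adjusted p = 0.00202), and Cdc7, the kinase that phosphorylates the Mcm ring (-0.45 ± 0.09, edgeR adjusted p = 0.00266). The 3 that rose were Orc2, an origin recognition subunit (0.37 ± 0.09, edgeR adjusted p = 0.00818), the nuclease-helicase Dna2 (0.36 ± 0.09, edgeR adjusted p = 0.00849) and topoisomerase Top1 (0.27 ± 0.09, edgeR adjusted p = 0.0263).

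The wider list of 34 genes of nucleotide supply had 11 higher (32.4%), 4 lower (11.8%) and a median log2 fold change of 0.165, beside 22.3% of all genes in each direction. Those that rose with the smallest adjusted p were Dctd, which deaminates dCMP on the way to dTMP (1.01 ± 0.13, edgeR adjusted p = 0.000116), the CTP synthase Ctps (0.56 ± 0.08, edgeR adjusted p = 0.000434), the serine hydroxymethyltransferase Shmt1 (0.53 ± 0.09, edgeR adjusted p = 0.000755) and the nucleoside diphosphate kinase Nme1 (0.48 ± 0.09, edgeR adjusted p = 0.00171). The 4 that fell were Samhd1, which degrades dNTPs in cells that are not in S phase (-1.14 ± 0.10, edgeR adjusted p = 9.60e-06), the second CTP synthase Ctps2 (-1.58 ± 0.15, edgeR adjusted p = 2.04e-05), the salvage enzyme deoxycytidine kinase Dck (-0.83 ± 0.13, edgeR adjusted p = 0.000444) and Adss, a step of AMP synthesis (-0.35 ± 0.09, edgeR adjusted p = 0.0126). The salvage kinases moved apart, since samples 1 to 3 had 108, 135 and 106 CPM of Dck with NETs and 178, 223 and 220.03 CPM in controls, while Tk1 rose. In the list of 11 other E2F and pocket protein genes, E2f3 (0.51 ± 0.09, edgeR adjusted p = 0.00141) and E2f5 (0.78 ± 0.15, edgeR adjusted p = 0.00159) rose, and 4 fell. These were the repressors E2f7 (-1.14 ± 0.09, edgeR adjusted p = 6.52e-06) and E2f8 (-0.60 ± 0.11, edgeR adjusted p = 0.00153), the pocket protein Rbl1 (-0.81 ± 0.13, edgeR adjusted p = 0.000614) and Tfdp2, a partner of E2F factors in DNA binding (-0.61 ± 0.09, edgeR adjusted p = 0.000418).

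The replication genes were set beside a list of 30 genes of mitosis, which the same dividing cells express later in the cycle. Of these, 27 fell (90%), 17 of them past the fold threshold, and none rose, with a median of -0.625 on the log2 scale. Of all genes, 22.3% were lower, and 11.9% were lower past the fold threshold. The smallest adjusted p belonged to Mki67, the proliferation marker of the chromosome surface (-1.18 ± 0.12, edgeR adjusted p = 2.62e-05), the spindle proteins Nusap1 (-1.18 ± 0.13, edgeR adjusted p = 4.67e-05) and Kif11 (-0.9996 ± 0.13, edgeR adjusted p = 0.00013), and the kinetochore protein Cenpf (-1.10 ± 0.12, edgeR adjusted p = 4.81e-05). Summed FPKM of the 48 replication genes over that of the mitosis genes was 2.05, 2.01 and 2.04 with NETs and 1.59, 1.5 and 1.49 in controls. The groups did not overlap in this ratio, which is a description and was not tested.

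**Figure D5:**
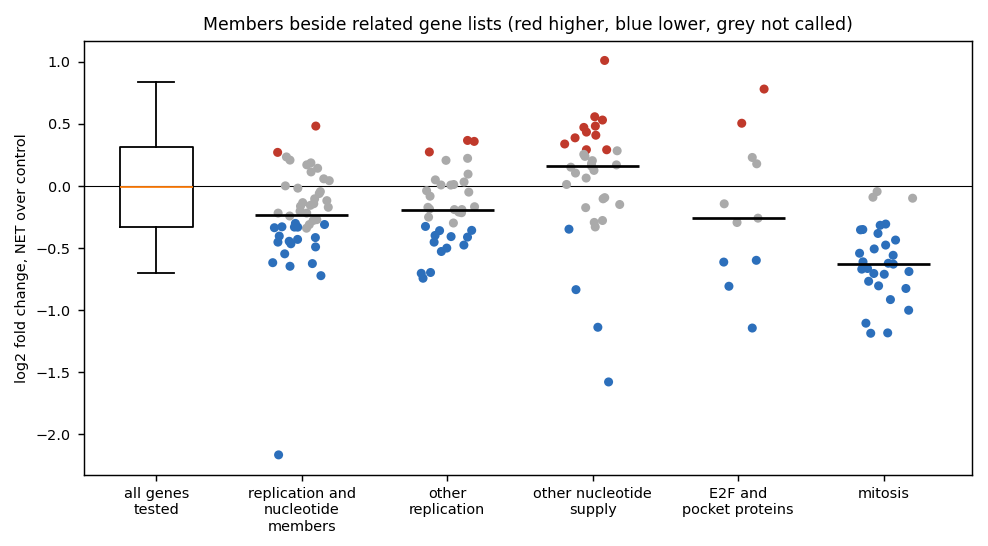
Log2 fold change, NET over control (y axis), of the 48 genes and of related lists, each point a gene (red higher, blue lower, grey not called) with its list's median as a bar; the box shows the quartiles of all genes tested and its whiskers the 10th and 90th percentiles. The medians are -0.23 for the 48 genes, -0.19 for other replication genes, 0.165 for other nucleotide supply genes, -0.26 for E2F and pocket protein genes and -0.625 for mitosis genes.

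The samples of a group did not carry the difference evenly. NET sample 3 had the lowest value of the NET group in 39 of the 48 genes (81.2%, beside 35.1% of all genes tested), and NET sample 2 had the highest in 34 (70.8%, beside 29.6%). The summed level of the 48 genes was 7197, 7904 and 6632 CPM in NET samples 1 to 3 and 8623, 8610 and 8614 CPM in control samples 1 to 3, so the controls were nearly equal and every NET sample was below them. The B cell markers ran the other way within the NET group, with a summed level of 198, 149.8 and 244.0 CPM in the same 3 samples, and the CD8+ T cell markers came to 3162, 3121 and 2832 CPM. Their part in the spread of the replication genes was not tested.

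Overlapping genes limit some of these values, because whether the counting used the strand is not given in the sources used here. An annotated gene on the opposite strand overlapped 19 of the 48 genes, 11 of the 21 that passed among them. For 4 of these 11 the partner had values of its own. Eif4a2, which overlaps Rfc4, had a mean of 463.8 CPM with NETs and 456.7 CPM in controls, far above Rfc4 itself. Cops6 and Ap4m1, which overlap Mcm7, had log2 fold changes of 0.26 and -0.21, Zswim9, which overlaps Lig1, was under 4 CPM in both groups, and Afmid, which overlaps Tk1, had a log2 fold change of -0.02. None of these 5 partners passed the test. Of the partners of members that did not pass, Lat2 (overlapping Rfc2) and Wsb2 (overlapping Rfc5) rose and Gse1 (overlapping Gins2) fell. On the same strand, 13 of the 48 genes were overlapped by another gene.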

How the data were processed

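RNA of mouse CD8+ T cells (3 NET and 3 control samples) was sequenced from poly(A) libraries marked for strand with dUTP. The submitters' processing notes name mm10 as the genome build, and which aligner, counting program and annotation were used is not given in the sources used here. Estimated counts per gene were deposited unscaled (31.6% of values were whole to 2 decimals), together with FPKM values that the authors had scaled for transcript length and library size. Rows blank in all samples were taken as missing.

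The estimated counts were rounded, filtered with filterByExpr to 12546 genes and scaled by TMM. NET and control samples were then tested with edgeR 4.0.16 (R 4.3.3), using its quasi-likelihood F test, two-sided, without covariates. Benjamini-Hochberg adjustment covered all genes tested, with a threshold of 0.05. As a second rule, a log2 fold change beyond 0.58 was asked for, as in the study. Standard errors come from the F statistic. Whether the samples of a group are separate mice or cultures is stated nowhere, so the p-values reflect variation among these samples, possibly only technical. The pipeline was tested on simulated data. There it recovered 29 of 50 genes changed by a factor of 1.5 and 44 of 50 changed by a factor of 2. It made 9 false calls among 12432 genes. A gene that did not pass is thus not shown to be unchanged. Alternatives were other scalings and filters, DESeq2 1.42.0, limma 3.58.1 (voom, and log2 FPKM with a pseudocount of 1 or 0.1), the replicate block and leaving out samples.

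The members and lists were chosen with earlier results of these data known. All 48 members were named. Values per sample were given for those that passed and for the member of each role with the highest FPKM, and in each related list up to 4 genes per direction with the smallest adjusted p were named. The cell type lists are named by their 2 highest genes. Further markers of plasma cells, neutrophils, dendritic cells, macrophages and monocytes, and the values of Eomes, were added after the values had been seen. Gene coordinates and promoters are from RefSeq and overlaps from GENCODE, on GRCm38. Some genes are not reported here.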

Additional observations from a re-analysis of the deposited data

How the results depend on the processing

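Over the 19 alternatives, all genes changed stayed within 1.5 times of 5608, and no member that passed the test changed direction. The median log2 fold change of the replication genes stayed between -0.305 and -0.174. Some members that did not pass changed sign, among them Mcm3 (-0.0525 to 0.0577) and E2f1 (-0.0362 to 0.238). Of the 21 members that passed, 11 passed under all alternatives, 17 members passed under none, and 10 members that missed the threshold passed under at least 1. With upper-quartile scaling 4 members rose, beside 3161 of all 12546 genes tested. Leaving out 1 sample gave 10 to 21 genes that fell and 1 to 3 that rose, and 4373 to 5829 genes changed. No scaling moved the median of all genes by over 0.1.

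Samples of equal number correlated in their deviations from the group means at 0.433, 0.138 and 0.0447 (numbers 1, 2 and 3), and NET samples 2 and 3 correlated best with a control of another number, so the numbers were not taken to pair the samples. With the replicate block, 26 members fell and 5 rose, and 7026 genes changed. The causes of these shifts were not tested. With 3 samples a group, the smaller changes lie near the limit of what can be called.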

Other observations

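A further list, 14 genes of translesion synthesis and mismatch repair, which act on replicated DNA, was added after the other results had been seen. Of these, 8 fell, 2 rose and 4 did not pass (edgeR), beside 22.3% of all genes in each direction. Their median log2 fold change was -0.25. Rad18, the ubiquitin ligase that modifies Pcna at stalled forks, was at 35.6, 43.3 and 37.2 CPM with NETs and 50.5, 59.1 and 58.1 CPM in controls, a log2 fold change of -0.53 ± 0.11 (edgeR adjusted p = 0.00266). Rev3l, the catalytic subunit of polymerase zeta, had -0.56 ± 0.15 (edgeR adjusted p = 0.0105), and Primpol, which can prime synthesis anew beyond a lesion, had -0.43 ± 0.13 (edgeR adjusted p = 0.0171). The Y-family polymerases did not move together: Polh fell by 0.30 on the log2 scale (edgeR adjusted p = 0.0157), Polk rose by 0.45 (edgeR adjusted p = 0.00523) and Rev1 rose by 0.28 (edgeR adjusted p = 0.0395).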
